A study of Homo sapiens with 2 samples.

Results

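H/ACA small nucleolar RNAs (SNORA genes) and small Cajal body RNAs (SCARNA genes) were examined in K562, a human leukaemia cell line with the BCR-ABL1 fusion kinase, by the symbol of the gene on the array. Members were chosen by symbol: every probe with exactly 1 platform gene symbol beginning SNORA or SCARNA was taken, and probes of a gene were averaged. This gave 77 genes (61 SNORA and 16 SCARNA, from 83 probes) of 18377 named genes in all. The rule itself reads symbols and no measured value, although it was set with earlier results of these data known.

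There were 2 samples, each on 1 whole-transcript Affymetrix Gene ST array. One culture received erythropoietin (EPO), the cytokine of red cell formation, during growth, and both cultures were exposed to 2 µM imatinib, an inhibitor of BCR-ABL1, for 6 h. The label of the other names no EPO, and it is taken as grown without EPO from the growth protocol. Both groups share the cell line, the serum-containing medium and the drug, K562 is 1 line, and untreated cells were not analysed here. The pair asks how transcripts differ with and without EPO when the kinase is inhibited. With 1 array per group no difference has a replicate check, a test or a p-value. The deposited log2 values are deviations of each probe from an unstated baseline, so they give no abundance, and levels of different genes cannot be compared. Over all probes their standard deviation was 0.134 with EPO and 0.431 without EPO. For the same reason the erythroid markers of the line (HBE1 at a difference of 0.11, HBZ at -0.04) could not show whether they were expressed. Of the markers of other cell types, the epithelial gene EPCAM stood at 0.08 with EPO and -1.17 without EPO, a difference of 1.25 (2.39-fold higher), and the T cell gene CD3E at -0.21, and the part of other cell types in the results was not tested. Every fold rests on reading the logarithm as base 2.

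H/ACA RNAs fold into a pair of hairpins joined by a hinge (box H) and end in a short ACA tail. Each guides the pseudouridine synthase dyskerin (DKC1), with the proteins NHP2, NOP10 and GAR1, to chosen uridines, SNORA RNAs mostly on ribosomal RNA in the nucleolus and SCARNA RNAs on spliceosomal small nuclear RNAs in the Cajal body. In human cells nearly all of them are cut from introns of host genes, often genes for ribosomal proteins or translation factors or non-coding SNHG genes. The SCARNA symbol marks the location of the RNA, not its fold. SCARNA7, SCARNA9 and SCARNA17 are known as box C/D RNAs, which guide 2′-O-methylation with the enzyme fibrillarin, and SCARNA5, SCARNA6, SCARNA10 and SCARNA12 as mixed RNAs with both kinds of box. The label H/ACA therefore does not hold for the box C/D RNAs and holds in part for the mixed ones. SCARNA9L, which resembles SCARNA9 by name, was left with the other SCARNA genes. All 16 were kept by the rule.

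Because an intronic RNA shares the promoter of its host, the start regions of 4 hosts that each hold a pair of these RNAs are shown, ahead of the values of those pairs. ATG16L1 holds SCARNA5 and SCARNA6, and KHDC4 holds SNORA80E and SCARNA4. RPL27A holds SNORA3A and SNORA3B, and TCP1 holds SNORA20 and SNORA29. In the first pair of hosts both RNAs were lower with EPO, and in the second pair they lay on opposite sides of 0. No rule was set for picking these 4. Among hosts not shown, CNOT1, RPSA and SNHG17 hold RNAs that were all lower, and KANSL2 and TBRG4 hold RNAs on both sides of 0. Each sequence is the 150 bases before the gene's start in RefSeq (GRCh38.p14), written 5′ to 3′ on the gene's strand, at chr2:233251523-233251672, plus strand for ATG16L1, chr1:155934414-155934563, minus strand for KHDC4, chr11:8682642-8682791, plus strand for RPL27A and chr6:159789603-159789752, minus strand for TCP1. Capitals mark GC boxes, found as GGGCGG on either strand.
ATG16L1: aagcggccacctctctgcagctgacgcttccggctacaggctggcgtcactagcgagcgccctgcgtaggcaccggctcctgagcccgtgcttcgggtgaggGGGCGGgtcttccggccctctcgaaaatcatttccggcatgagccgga
KHDC4: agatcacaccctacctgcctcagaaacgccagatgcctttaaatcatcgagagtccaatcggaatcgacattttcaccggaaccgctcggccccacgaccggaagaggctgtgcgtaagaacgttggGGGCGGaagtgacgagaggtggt
RPL27A: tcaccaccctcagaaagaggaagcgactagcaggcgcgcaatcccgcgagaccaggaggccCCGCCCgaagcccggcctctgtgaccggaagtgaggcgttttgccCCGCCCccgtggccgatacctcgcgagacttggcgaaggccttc
TCP1: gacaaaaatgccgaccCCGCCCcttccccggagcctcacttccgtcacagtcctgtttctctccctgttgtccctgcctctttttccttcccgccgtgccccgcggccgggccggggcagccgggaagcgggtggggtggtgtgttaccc

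All 4 stretches hold a GC box, with 2 in RPL27A and 1 in each of the others, and none holds CACGTG or TATAAA. The table held 65 starts of 49 of the genes that hold a member, and the 250 bases before each were searched. GGGCGG on either strand was present in 46 of the 65 (70.8%), against 42.6% of all 35116 starts in the table at the same length. CACGTG was present in 3 of 65 (4.62%) against 6.34%, and TATAAA in 3 of 65 (4.62%) against 10.7%. Of the 17 starts whose gene holds a member that was at least 2-fold lower, 12 had GGGCGG, 2 had CACGTG and 2 had TATAAA. These matches are a description of the letters in these windows.

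SNORA genes were lower with EPO. Their median difference, with EPO minus without EPO, was -0.70 on the log2 scale, against -0.047 over all named genes. Of the 61, 51 lay below 0, 17 (27.9%) were at least 2-fold lower and 0 were at least 2-fold higher. Over all named genes 54.6% lay below 0, 0.898% were at least 2-fold lower and 6.19% were at least 2-fold higher. The middle of the SNORA differences ran from -1.19 to -0.13 (quartiles) and the whole range from -2.64 to 0.74.

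SCARNA genes stood at nearly the same place. Their median difference was -0.72, with 15 of 16 below 0, 4 (25%) at least 2-fold lower and 0 at least 2-fold higher, against the same shares over all named genes. The quartiles were -0.97 and -0.47, and the range was -2.12 to 0.04. The SNORA and SCARNA medians thus differed by less than the spread of either class, and that difference has no test in 1 array per group. Together the 2 classes supplied 21 of the 165 named genes that were at least 2-fold lower, which is 12.7% of those genes and 27.3% of the 77 members.

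**Figure D1:**
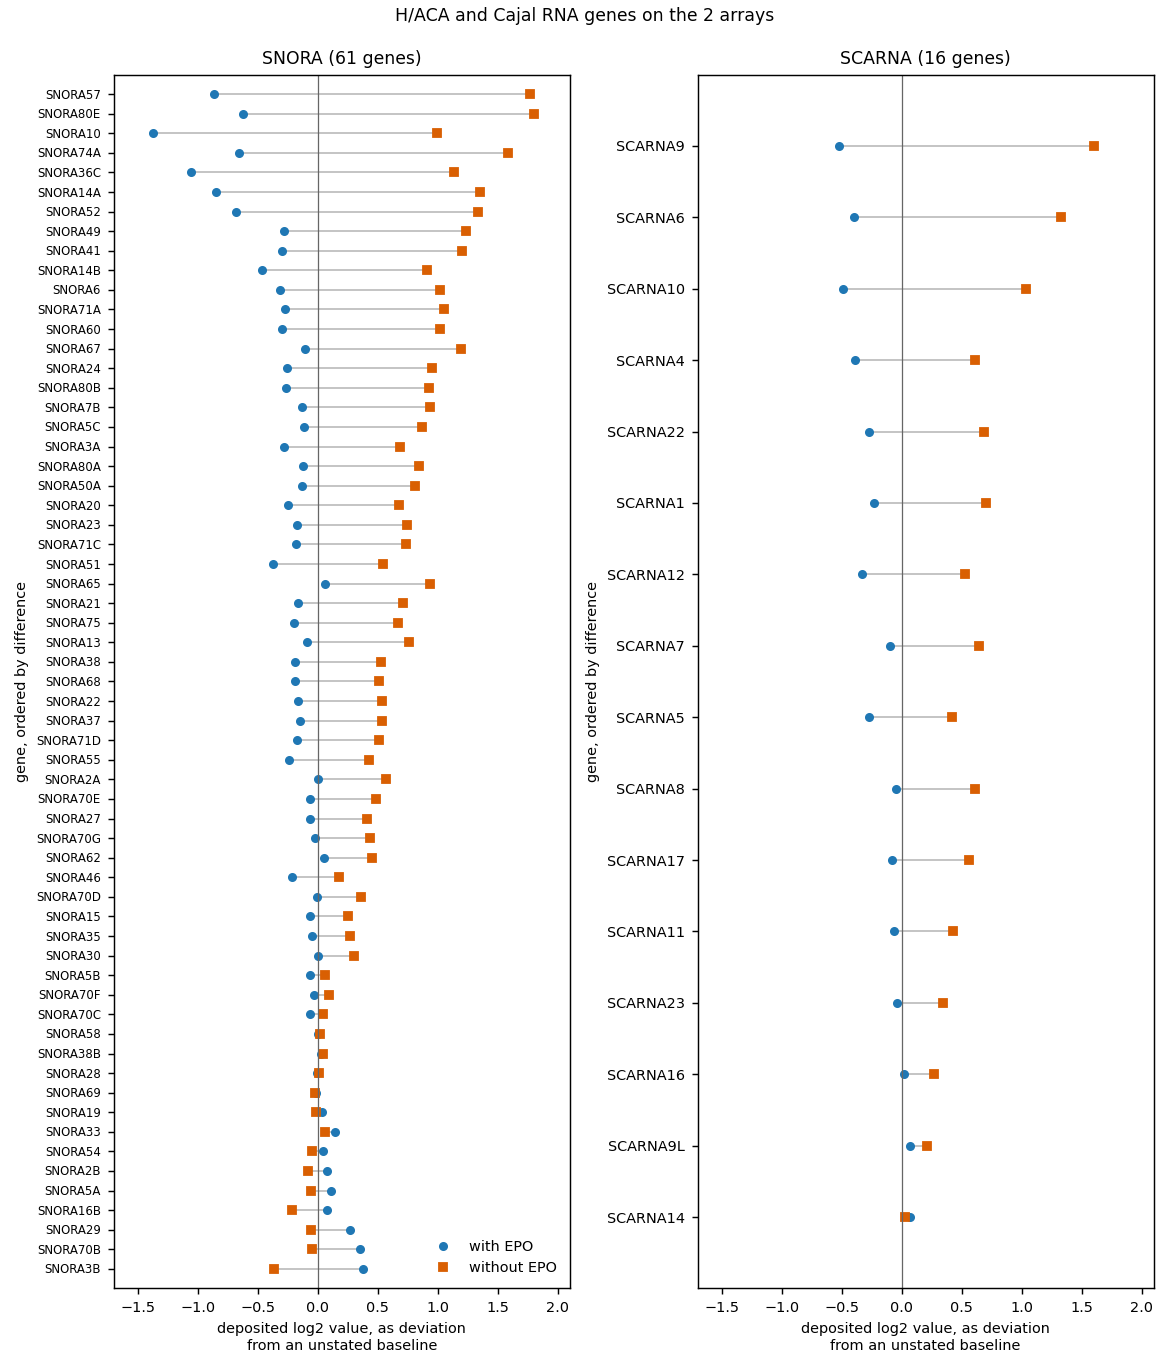
Deposited log2 values (x axis, deviation from an unstated baseline) of each of the 61 SNORA genes (left) and 16 SCARNA genes (right), ordered by difference, with circles for the array with EPO and squares for the array without EPO. Most squares lie to the right of 0, up to 1.80 for SNORA80E, and most circles lie slightly to the left of it.

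The array without EPO lay farther from the baseline. The SNORA median was -0.13 with EPO and 0.54 without EPO, and 50 of 61 genes lay farther from 0 without EPO. The SCARNA medians were -0.16 and 0.59, and 15 of 16 genes lay farther from 0 without EPO. All 16 SCARNA genes were above 0 without EPO, and 13 of them were below 0 with EPO. Of all 18377 named genes, 10061 were above 0 without EPO and 9312 were below 0 with EPO. In SNORA, 46 of 61 genes were below 0 with EPO and above 0 without it, 12 stood 1 or more above 0 without EPO, and only SNORA10 and SNORA36C stood 1 or more below 0 with EPO. The array without EPO also deviated more over all probes, as given above, and the part of that wider spread in these values was not tested. Over all named genes the standard deviation was 0.128 with EPO and 0.429 without EPO. How many of all named genes lay farther from 0 without EPO, or changed side between the arrays, was not counted. The counts given here therefore do not set the members apart from other genes.

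Other classes of small RNA also had medians below 0 as deposited. Box C/D small nucleolar RNAs (SNORD, 115 genes), the methylation guides of ribosomal RNA, had a median difference of -0.14, with 20 (17.4%) at least 2-fold lower and 2 higher. Small nuclear RNAs (20 genes), among them RNAs that the SCARNA class modifies, had a median of -1.48, with 14 (70%) at least 2-fold lower and 0 higher. All 20 were above 0 without EPO and below 0 with EPO. SNORA and SCARNA medians lay between the other classes. Genes for proteins of large cellular complexes went the other way. These were 190 genes, taken by symbol, of the proteasome, mitochondrial ribosome, respiratory chain (NDUF genes only), nuclear pore and RNA polymerase II. Their median was 0.48, which is 0.53 above that of all named genes. Families here called silent, such as olfactory receptors and keratin-associated proteins (482 genes taken by symbol), had a median of -0.33. Whether these genes were silent in K562 cells was not tested. Of these, 442 (91.7%) lay below 0, a share above that of SNORA (83.6%) and near that of SCARNA (93.75%). Without EPO 445 of the 482 were above 0, and with EPO 358 were below 0. Relative to the protein complexes the SNORA median was -1.18 and the SCARNA median -1.20, and relative to the silent families they were -0.37 and -0.38. The sign of the SNORA and SCARNA medians was the same under each of these scalings, and so was that of the small nuclear RNAs (-1.96 and -1.14). The SNORD median was -0.62 relative to the protein complexes but 0.20 relative to the silent families, so its direction depends on the scaling. While the signs held for SNORA and SCARNA, the count of SNORA genes at least 2-fold lower was 37 with the first and 10 with the second. The count of SCARNA genes was 11 and 3.

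**Figure D2:**
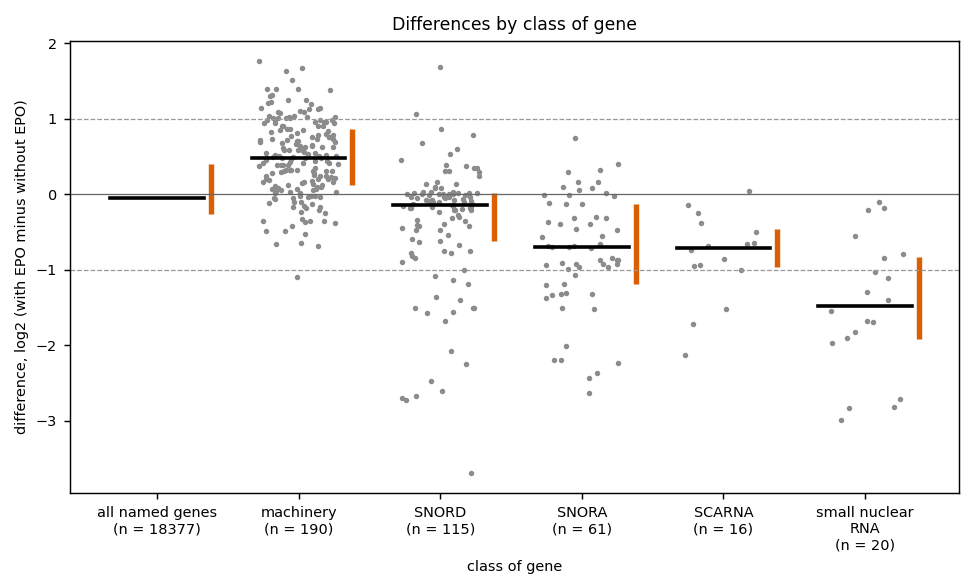
Difference between the arrays (y axis, log2, with EPO minus without EPO) by class of gene, with a point for each gene except in the class of all named genes, a black line at the median and a coloured bar from the lower to the upper quartile over genes. Dashed lines mark 2-fold, and SNORA (median -0.70) and SCARNA (-0.72) lie between SNORD (-0.14) and small nuclear RNAs (-1.48).

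The SNORA gene with the largest difference was SNORA57. It stood at -0.87 with EPO and 1.77 without EPO, a difference of -2.64 (6.23-fold lower), which ranked 18 from the lowest of all named genes. SNORA80E, an RNA of the KHDC4 gene, stood at -0.63 and 1.80, a difference of -2.43 (5.39-fold lower). Both were far above the baseline without EPO and moderately below it with EPO. SNORA10, which lies in the ribosomal protein gene RPS2, stood at -1.37 and 0.99, a difference of -2.36 (5.15-fold lower), and was the member farthest below the baseline with EPO. Its 2 probes gave differences within 0.00088 of each other, so they do not check each other if they share sequence, which was not tested.

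SNORA74A, also known as U19, an RNA tied to ribosome maturation, stood at -0.65 with EPO and 1.58 without EPO, a difference of -2.24 (4.72-fold lower). SNORA36C stood at -1.06 and 1.14, a difference of -2.20 (4.58-fold lower). SNORA14A stood at -0.85 and 1.35, a difference of -2.19 (4.58-fold lower). In these 3 genes the arrays lay on opposite sides of the baseline, as in every SNORA gene that was at least 2-fold lower. SNORA52, within the gene of the ribosomal stalk protein RPLP2, stood at -0.68 and 1.33, a difference of -2.01 (4.04-fold lower). No other SNORA gene was more than 3-fold lower.

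Another 10 SNORA genes were between 2-fold and 3-fold lower. SNORA49 stood at -0.28 with EPO and 1.23 without EPO (difference -1.52), and SNORA41 at -0.30 and 1.20 (difference -1.50). SNORA14B stood at -0.47 and 0.91 (difference -1.38), SNORA6 at -0.31 and 1.02 (difference -1.33) and SNORA71A at -0.27 and 1.05 (difference -1.32). Measured from the unstated baseline, the values without EPO carried most of each of these differences. That array also deviated more over all probes. SNORA60, an RNA of SNHG11, stood at -0.30 and 1.02 (difference -1.32; -0.59 by a probe shared with SNHG11), and SNORA67 at -0.11 and 1.20 (difference -1.30). SNORA24, which lies in SNHG8 and guides pseudouridylation of the small ribosomal subunit RNA, stood at -0.26 and 0.95 (difference -1.20). The last in this range were SNORA80B, in the polyamine enzyme gene ODC1, at -0.26 and 0.93 (difference -1.19) and SNORA7B at -0.13 and 0.94 (difference -1.07).

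The other 44 SNORA genes were within 2-fold, 34 of them below 0 and 10 above. Just inside the 2-fold line were SNORA5C at -0.99, SNORA3A at -0.97 and SNORA80A at -0.96. Between -0.93 and -0.66 lay, in order, SNORA50A, SNORA20, SNORA23, SNORA71C, SNORA51, SNORA65, SNORA21, SNORA75, SNORA13, SNORA38, SNORA68, SNORA22, SNORA37, SNORA71D and SNORA55. SNORA13, known to guide the modification of a uridine in the decoding region of the small subunit RNA, stood at -0.09 with EPO and 0.76 without EPO, a difference of -0.85. SNORA65 was the only one of these with a value above 0 on both arrays, 0.06 with EPO and 0.93 without. SNORA2A, SNORA70E, SNORA27, SNORA70G, SNORA62, SNORA46, SNORA70D, SNORA15, SNORA35 and SNORA30 lay between -0.56 and -0.30.

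SNORA5B, SNORA70F and SNORA70C lay between -0.13 and -0.11. The 5 SNORA genes nearest to no difference were SNORA69 at 0.012, SNORA28 at -0.015, SNORA38B at -0.017, SNORA58 at -0.023 and SNORA19 at 0.05. Their values on the arrays lay within 0.05 of the baseline. Above 0 were also SNORA33 at 0.09, SNORA54 at 0.09, SNORA2B at 0.16, SNORA5A at 0.17, SNORA16B at 0.29, SNORA29 at 0.32 and SNORA70B at 0.40. The highest, SNORA3B, stood at 0.38 with EPO and -0.36 without EPO, a difference of 0.74 (1.67-fold higher). It was the SNORA gene with the highest value with EPO and the lowest without.

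SCARNA genes with box C/D elements held the largest differences of that class. SCARNA9, a box C/D RNA that guides methylation of the U2 small nuclear RNA, stood at -0.52 with EPO and 1.60 without EPO, a difference of -2.12 (4.35-fold lower). Its 2 probes gave -2.42 and -1.82, so both were past 3-fold. SCARNA6, a mixed RNA also known as U88, stood at -0.40 and 1.33, a difference of -1.72 (3.30-fold lower). SCARNA10, the mixed RNA U85, which guides both modifications on the U5 small nuclear RNA, stood at -0.49 and 1.03, a difference of -1.52 (2.87-fold lower). SCARNA12 and SCARNA5, also mixed, stood at -0.86 and -0.69. SCARNA7 and SCARNA17, which are box C/D RNAs, stood at -0.74 and -0.64. The 7 box C/D and mixed genes had a median of -0.86, with 7 of 7 below 0 and 3 at least 2-fold lower.

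The other 9 SCARNA genes had a median of -0.49, with 8 below 0 and 1 at least 2-fold lower. That gene was SCARNA4, an H/ACA RNA, at -0.39 with EPO and 0.61 without EPO, whose difference of -1.001 lies at the 2-fold line. SCARNA22, an RNA within the NSD2 gene, stood at -0.27 and 0.68 (difference -0.96), and SCARNA1 at -0.23 and 0.71 (difference -0.94). SCARNA8 stood at -0.66, SCARNA11 at -0.49, SCARNA23 at -0.38 and SCARNA16 at -0.25. These 6 genes kept the order of the class, higher without EPO than with it. SCARNA14 stood at 0.07 and 0.03, a difference of 0.04, and was the only SCARNA gene above 0. SCARNA9L, a copy that resembles SCARNA9, had probes at -0.40 and 0.11, which disagree in sign, and a mean of -0.14. SCARNA9 itself and SCARNA9L therefore differed by 1.98.

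Genes that carry the same number did not always have like differences. The 3 measured SNORA71 genes, which lie in SNHG17, ran from -1.32 to -0.69, and the 2 SNORA14 genes, in different hosts, stood at -2.19 and -1.38. The 3 SNORA80 genes ran from -2.43 to -0.96. In contrast, 6 SNORA70 genes, copies at different loci of an RNA that also lies in RPL10, ran from -0.55 to 0.40 with a median of -0.24. Copies of this kind can share sequence, so the signal of a probe may not belong to 1 locus, and the authors' probe design was not examined here.

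Members were then set beside the gene that holds them. Of the 77, 69 lay within the span of exactly 1 RefSeq gene (58 distinct genes) and 8 within several, with numbered unnamed gene models left aside. The strand was not compared, since the gene table does not give it. In 58 pairs (48 distinct hosts) the host also had a probe of its own. The member was lower than its host in 53 of the 58 pairs, by 1 or more in 32, and the median of member minus host was -1.16. The hosts had a median difference of 0.46, with 39 of 48 above 0, 7 (14.6%) at least 2-fold higher and 0 at least 2-fold lower. The share at least 2-fold higher was 6.19% over all named genes and 16.8% in the protein complexes, and the share at least 2-fold lower over all named genes was 0.898%. The share below 0 was 54.6% over all named genes and 17.4% in the protein complexes. Relative to the protein complexes the host median was -0.02, so its direction depends on the scaling. A member minus its host is unchanged when the same constant is subtracted from every gene. Scalings that vary from gene to gene were not tried.

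In 39 pairs the member was below 0 while the host was above it. Each sign was common by itself, with 66 of the 77 members below 0 and 39 of the 48 distinct hosts above 0. Whether opposite signs were more frequent than these shares alone would give was not tested. SCARNA10 stood at -1.52 and its host NCAPD2, a condensin subunit, at 1.18. SNORA14B stood at -1.38 and its host TOMM20, an import receptor of mitochondria, at 1.27. SNORA36C stood at -2.20 and its host AAK1, a kinase of clathrin adaptors, at 0.60. In each of these the host was on the opposite side of 0 from its RNA. SNORA10 stood at -2.36 beside RPS2 at 0.0055, and SNORA52 at -2.01 beside RPLP2 at 0.04. The hosts of these ribosomal protein RNAs were nearly equal on the arrays. Members above their host were SNORA2B, SNORA3B, SNORA70C, SNORA70B and SNORA35, the last a brain RNA of the serotonin receptor gene HTR2C, at -0.31 beside -0.38.

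**Figure D3:**
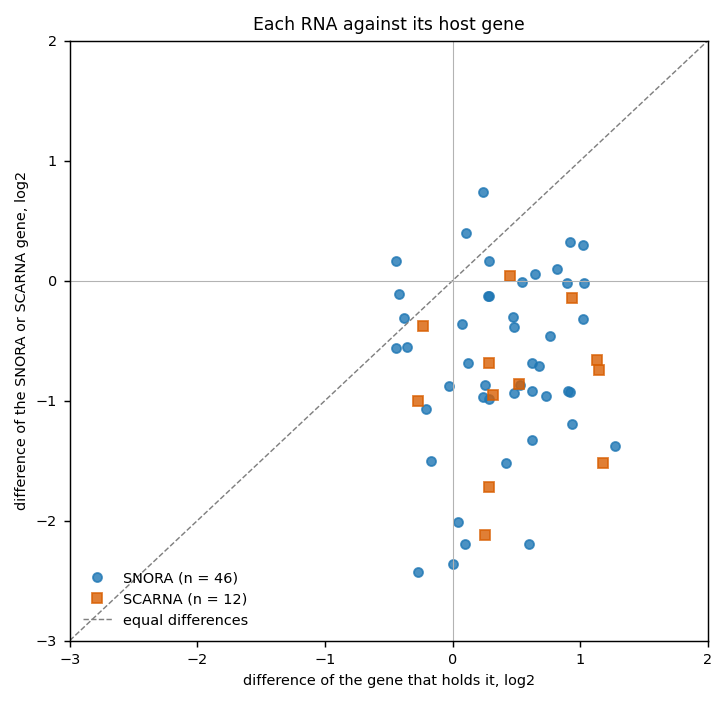
Difference of each SNORA or SCARNA gene (y axis, log2, with EPO minus without EPO) against that of the gene that holds it (x axis, same scale), for 58 pairs, where a host with several RNAs appears several times. The dashed line marks equal differences, and 53 of the 58 points lie below it.

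Across the 58 pairs the differences of member and host were weakly related, with Pearson r = 0.11 and Spearman rho = 0.098. These are descriptions over genes that share arrays and in part hosts, and genes are not replicates. An intronic RNA's probe also matches the unspliced host transcript, so mature RNA and unspliced transcript cannot be told apart here. By kind of host, 12 SNORA genes in ribosomal protein genes had a median of -0.79 (3 at least 2-fold lower), and the 5 of these hosts with a probe had a median of 0.04. The 37 SNORA genes in other protein-coding genes had a median of -0.46 (7 at least 2-fold lower) and the 31 hosts with a probe a median of 0.48. The 6 in non-coding hosts ran from -1.32 to -0.69, with 4 at least 2-fold lower. Another 6, among them SNORA57 and SNORA74A, lay within several genes, with a median of -1.08 and 3 at least 2-fold lower.

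RNAs of the same host differed from each other, in 9 hosts with several members. In RPL27A, a ribosomal protein gene, SNORA3A stood at -0.97 and SNORA3B at 0.74, a gap of 1.71, with the host at 0.24. In KHDC4 SNORA80E stood at -2.43 and SCARNA4 at -1.001, with the host at -0.27. In TCP1, a subunit of the chaperonin, SNORA20 stood at -0.93 and SNORA29 at 0.32, with the host at 0.92. These 3 hosts had the widest gaps, and their printed start regions are those given above. In TBRG4 SNORA5C, SNORA5B and SNORA5A stood at -0.99, -0.13 and 0.17, with the host at 0.29. In ATG16L1, an autophagy gene, SCARNA6 stood at -1.72 and SCARNA5 at -0.69, with the host at 0.29. The gap between SNORA6 (-1.33) and SNORA62 (-0.40) in the ribosomal protein gene RPSA was 0.93. The narrowest gaps were those of CNOT1 (SNORA50A and SNORA46, 0.55), SNHG17 (0.64) and KANSL2 (SNORA2A and SNORA2B, 0.72).

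Probes that carry a SNORA or SCARNA symbol beside others were no members, but were looked at. Of 28 such probes, 23 lay below 0, 8 were at least 2-fold lower and 0 higher, with a median of -0.60 and a range of -2.61 to 0.99. The lowest was shared by SNORA36A, MIR664B and DKC1 at -1.32 with EPO and 1.30 without. The probe shared by SNORA64 and RPS2 stood at -1.59, that of SCARNA13 and SNHG10 at -1.59 and that of SNORA73A, the U17 RNA needed for ribosomal RNA cleavage, and SNHG3 at -0.96. Some shared probes disagreed with the member's own probe. That of SNORA60 and SNHG11 stood at -0.59, within 2-fold, against -1.32 for the SNORA60 gene. That of SNORA33 and SNORD101 stood at -1.18 and that of SNORA33 and RPS12 at 0.04, against 0.09 for the SNORA33 gene. At the other end, a pair of probes of SNORA40 and TAF1D stood at 0.54 and 0.99. SNORA63, SNORA73B and SNORA74B were not analysed here.

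Genes for the proteins that work with these RNAs mostly did not share their direction as deposited. The list was written down with earlier results known and has 29 protein genes, of which 25 had a probe of their own. Their median difference was 0.34, with 19 above 0, 4 at least 2-fold higher and 0 lower, against 6.19% and 0.898% over all named genes. Below 0 lay 6 of the 25, against 54.6% over all named genes and 33 of 190 (17.4%) in the protein complexes. Relative to the protein complexes of the cell, 10 of the 25 lay above the median and none of the 4 kept 2-fold.

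The core of the H/ACA particle was split as deposited. DKC1, dyskerin, the pseudouridine synthase, stood at 0.21 with EPO and -0.82 without EPO, a difference of 1.03 (2.05-fold higher). That rests on 1 probe. Probes that carry the DKC1 symbol beside others stood at -2.61 (with MIR664B and SNORA36A) and -0.31 (with SNORA56). NHP2 stood at 0.24, GAR1 at 0.05 and NOP10 at -0.26. The last 3 encode the other core proteins, and only DKC1 was past 2-fold. The median of these 4 was 0.15, and relative to the protein complexes only DKC1 was above 0, at 0.55. Relative to the silent families all 4 were above 0, with DKC1 at 1.37, NHP2 at 0.58, GAR1 at 0.38 and NOP10 at 0.07. The split therefore depends on the scaling.

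All 4 assembly genes were above 0 as deposited. NAF1, the factor that holds dyskerin on new H/ACA RNAs until GAR1 replaces it, stood at 0.20 with EPO and -1.07 without EPO, a difference of 1.27 (2.41-fold higher). RUVBL1, an ATPase of snoRNP assembly, stood at 0.37 and -0.62 (difference 0.99), its partner RUVBL2 at 0.29 and SHQ1, a chaperone of dyskerin, at 0.46. Without EPO all 4 were below the baseline, the reverse of most SNORA genes. Relative to the protein complexes RUVBL2 and SHQ1 turned negative, at -0.19 and -0.03.

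Of 12 Cajal body genes 10 were measured, with 7 above 0 and 1 at least 2-fold higher. NOLC1, which shuttles between nucleolus and Cajal body, stood at 0.23 with EPO and -0.84 without EPO, a difference of 1.08 (2.11-fold higher). COIL, which encodes coilin, the scaffold of the Cajal body, stood at 0.07 and -0.90 (difference 0.97). GEMIN8 and GEMIN5, of the complex that loads Sm proteins on small nuclear RNAs, stood at 0.89 and 0.77. By contrast WRAP53, whose protein binds the signal that brings H/ACA RNAs to the Cajal body, stood at -0.12 and 0.16 (difference -0.28). GEMIN7 stood at 0.44, TOE1 at 0.21, GEMIN4 at 0.20, GEMIN2 at -0.09 and GEMIN6 at -0.10. Relative to the silent families WRAP53, GEMIN2 and GEMIN6 turned positive, at 0.05, 0.24 and 0.23. Relative to the protein complexes GEMIN7, TOE1 and GEMIN4 turned negative, at -0.04, -0.27 and -0.28. SMN1 and SMN2 share probes and were not taken.

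Telomerase RNA itself ends in an H/ACA domain. TERC, that RNA, stood at -0.28 with EPO and 0.32 without EPO, a difference of -0.60, and TERT, the reverse transcriptase, at -0.20 and 0.23 (difference -0.43). Both lay below 0, as most SNORA genes and 54.6% of all named genes did, and within 2-fold. Relative to the silent families TERC was at -0.27 and TERT at -0.10. Among genes that process RNA ends and introns, TENT4B, the polymerase that adds short adenosine tails to such RNAs, stood at 0.16 and -1.10, a difference of 1.26 (2.39-fold higher). PARN, the nuclease that trims those tails, stood at -0.10 and 0.45, a difference of -0.55. The exosome nuclease EXOSC10 and the lariat debranching enzyme DBR1 stood at 0.34 and 0.21. The box C/D proteins FBL and NOP58 stood at 0.63 and 0.62.

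**Figure D4:**
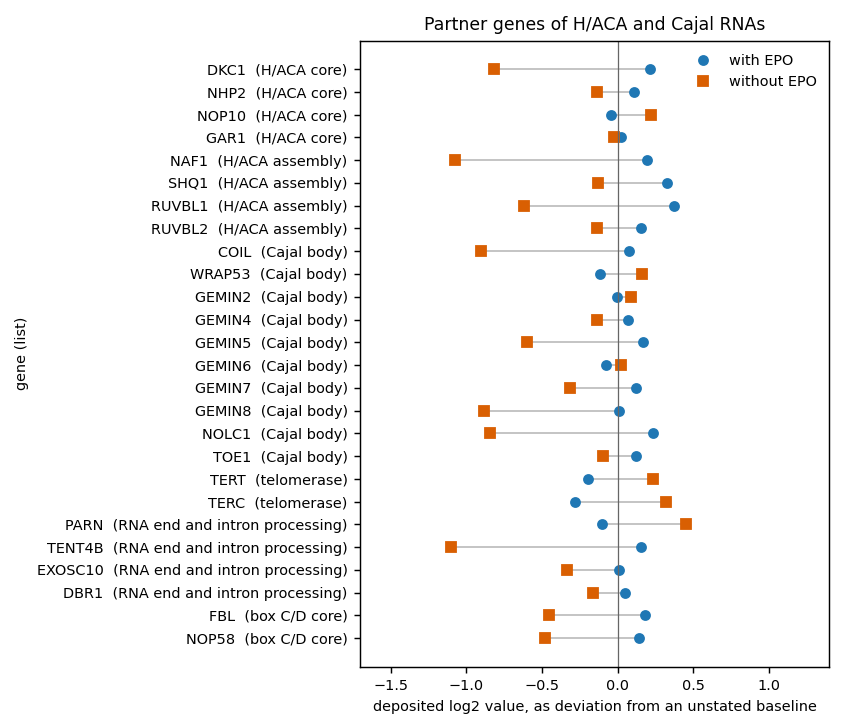
Deposited log2 values (x axis, deviation from an unstated baseline) of partner genes of H/ACA and Cajal RNAs, with circles for the array with EPO and squares for the array without EPO, grouped by list. DKC1, NAF1, NOLC1 and TENT4B have squares between -1.10 and -0.82 and circles between 0.16 and 0.23, while TERC and PARN have the reverse order.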

How the data were processed

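The deposited log2 values were used as they stand (28869 probes by 2 arrays); the authors centred each probe, as the values show, on an unstated baseline. The background correction, normalization, software and log base are likewise not given in the sources used here. Per the labels' protocols, total RNA from a column kit that retains small RNAs was turned into biotin-labelled cDNA. Probes were named by the platform annotation: 19310 had 1 symbol, 1752 several and 7807 were not listed. Probes of a gene were averaged, giving 18377 genes, and all 77 members matched RefSeq by Entrez ID. A result is the value with EPO minus that without EPO, and a gene was called at 2-fold or more (1 on the log2 scale), with no test, since there is 1 array per group. The number of arrays limits the precision.

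Hosts were RefSeq genes whose span contains the member. Named were every SCARNA gene, every SNORA gene past 2-fold, the 5 nearest to 0, numbered families, their hosts and the partner lists; others were named after their values were seen. The members and lists were chosen with earlier results of these data known. Alternatives were other scalings, probe rules, fold thresholds and member rules. The count and median steps were run on permuted differences with set values, which checks the calculation and not these results. Python 3.11.15, NumPy 2.4.6, pandas 2.3.3 and Matplotlib 3.10.9 were used.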

Additional observations from a re-analysis of the deposited data

How the results depend on the processing

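No paired analysis was possible because each group has 1 array and the results come from no test. The SNORA median of -0.70 was -0.65 with the median of all named genes subtracted, -1.18 with that of the protein complexes, -0.37 with that of silent families (chosen after seeing the data), -0.71 without genes whose symbol ends in a letter and -0.76 as a mean. The SCARNA median of -0.72 was -0.67, -1.20, -0.38, -0.74 and -0.82 in the same order, and -0.49 without box C/D and mixed RNAs. The 17 SNORA genes at least 2-fold lower became 37 with the protein complexes subtracted, 10 with silent families subtracted, 9 of 34 without symbols ending in a letter, and 35 and 7 at thresholds of 1.5-fold and 3-fold. The 4 SCARNA genes became 11 with the protein complexes subtracted, 1 of 9 without box C/D and mixed RNAs, and 11 and 2 at those thresholds. The 0 SNORA genes at least 2-fold higher became 1 with silent families subtracted and 1 at 1.5-fold. No median changed sign under these alternatives. Of the 21 members past 2-fold, 1 (SCARNA4) lost it with the median of all named genes subtracted and 8 with silent families subtracted, and 0 with the protein complexes subtracted or the probe of smallest difference. Symbols updated through RefSeq changed no member. The absent replicates, and the unknown baseline and intensities, limit all of these values.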
